A study of Mus musculus with 2 samples.

Results

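The genes described here handle iron and bind metals in the mouse colon. They are the ferritin subunits Fth1 and Ftl1, the iron transport genes Tfrc, Slc11a2, Slc40a1, Heph and Cybrd1, and the metallothioneins Mt1 and Mt2. These 9 genes were found by symbol, through the gene identifier without its version, in the deposited gene and transcript tables of both libraries. They are 9 of 43346 Ensembl genes in each table. The study measured polyadenylated RNA from colon tissue of adult C57BL/6J mice aged 8 weeks, in 1 group of 2 libraries that the labels call biological replicates 1 and 2. Both libraries were stranded, read from both ends and made from RNA longer than 200 nt with spike-in RNAs added. The labels give no treatment, genotype change or second condition, call the health state unknown, and describe pooled male and female littermates under 1 donor record. The labels do not say which animals went into which library. P-values below therefore set these 2 libraries against each other and do not extend to other mice.

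Iron that is not in use is stored inside the ferritin shell, which is built from heavy subunits that oxidise iron and light subunits that help it to mineralise. In gut epithelium, iron is reduced at the lumen by the reductase Cybrd1, carried in by Slc11a2, exported into blood by ferroportin (Slc40a1) and oxidised by hephaestin (Heph), while the transferrin receptor Tfrc takes up iron from blood. The iron regulatory proteins Aco1 and Ireb2 bind a hairpin in several of these mRNAs, the iron-responsive element, when iron is low. Binding in a 5′ UTR blocks translation, and binding in a 3′ UTR stabilises the mRNA. Metallothioneins are small cysteine-rich proteins that bind zinc and copper, and the zinc-sensing factor Mtf1 induces them through metal response elements near their start sites.

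The libraries held 46689262 and 45966841 expected counts, the authors' estimates of reads per gene. Replicate 1 held 8721 counts of Xist and 0 counts over 4 Y-linked genes, and replicate 2 held 12 and 1382, against a label of pooled sexes for both. Markers of pancreatic acinar cells summed to 454 TPM in replicate 1 and 35030.0 TPM in replicate 2, where TPM is transcript abundance corrected for length and scaled to a fixed total. All 11 of these markers were called higher in replicate 2, as were 5 of 6 tested erythroid and haemoglobin genes, whose sum was 525 and 2998 TPM. Colonocyte markers summed to 18640.0 and 20560.0 TPM, with 0 of 7 called, and goblet markers to 28640.0 and 32350.0 TPM, with 0 of 6 called. Macrophage markers, of interest because macrophages recycle iron, summed to 482 and 451 TPM with 0 of 8 called. Among 13796 genes with a mean of at least 1 TPM, 96.25% lay within 2-fold between the libraries.

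The sequences of the iron-responsive element are shown because they divide the members into classes. A match was a C, 5 bases, CAGTG and 1 more base, and 5 bases, in which the runs of 5 bases pair with each other by Watson-Crick or G-U pairs. It was searched in transcript sense in GENCODE vM21 transcripts (mm10). All 5 pairs were required, and 4 of 5 was tried as an alternative. In the lines below, capitals mark the bulged C and the 6-base loop, and each line is written 5′ to 3′ on the strand of the gene.
Fth1, 5′ UTR, plus strand, chr19:9982733-9982759: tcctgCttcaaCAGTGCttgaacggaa
Ftl1, 5′ UTR, minus strand, chr7:45459780-45459806: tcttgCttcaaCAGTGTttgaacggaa
Slc40a1, 5′ UTR, minus strand, chr1:45925466-45925492: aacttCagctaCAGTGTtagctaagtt
Tfrc, 3′ UTR, plus strand, chr16:32631220-32631246: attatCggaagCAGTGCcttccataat
Tfrc, 3′ UTR, plus strand, chr16:32631599-32631625: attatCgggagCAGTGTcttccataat
Tfrc, 3′ UTR, plus strand, chr16:32631664-32631690: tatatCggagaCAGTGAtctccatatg
Tfrc, 3′ UTR, plus strand, chr16:32631711-32631737: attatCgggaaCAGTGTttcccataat
Slc11a2, 3′ UTR, minus strand, 4 of 5 pairs, chr15:100395154-100395180: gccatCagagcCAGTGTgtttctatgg

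With all 5 pairs required, 4 of the 9 genes held a match, namely Fth1, Ftl1, Slc40a1 and Tfrc. Across 21842 protein-coding genes, 294 held one (1.35%), and 160 held one in an annotated UTR (0.733%). The match lay in the 5′ UTR of Fth1, Ftl1 and Slc40a1, and Tfrc held 4 in its 3′ UTR. At 4 of 5 pairs, Slc11a2 gained the site printed above and Heph a site in its coding sequence, but 10.7% of protein-coding genes then held a match. Cybrd1, Mt1 and Mt2 had no match at either setting. The pattern was that of an element already known in several of these mRNAs, so the matches in these genes are no independent result. A match is a run of letters that can pair, and protein binding was not measured.

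Ferritin mRNA was among the most abundant in this tissue. Fth1 (ENSMUSG00000024661.6, chromosome 19, 9980598 to 9985098, plus strand), the heavy subunit, stood at 4030 TPM in replicate 1 and 3832 TPM in replicate 2, a mean of 3931 ± 140.0 TPM (SD, n = 2). That was rank 19 among 21461 nuclear protein-coding genes, between Klk1 at 4378 TPM and Krt8 at 3874 TPM. Ftl1 (ENSMUSG00000050708.10, chromosome 7, 45457944 to 45459884, minus strand), the light subunit, stood at 2990.2 and 2711 TPM, a mean of 2850.0 ± 198 TPM (SD, n = 2), at rank 30. Fth1 exceeded Ftl1 by 1.35 times in replicate 1 and by 1.41 times in replicate 2 in TPM. The subunits together took 0.702% and 0.654% of all TPM. Fth1 was higher than Ftl1 in both libraries, and their values did not overlap.

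Ferritin genes have copies elsewhere in the genome with which reads may be shared. A search for annotated symbols starting with Fth or Ftl gave 13 further genes and pseudogenes, of which 10 were listed at 0 counts in both libraries. Copies under other symbols were not searched. Ftl1-ps1, a copy of Ftl1, was assigned 999 and 617 counts, or 38.4 and 23.7 TPM, against 80598 and 72997 counts for Ftl1 itself. The authors' deposited standard deviation of the estimated count was 34.3 and 18.8 for Ftl1-ps1 and 33.1 and 18.4 for Ftl1. For Fth1 it was 0.58 and 0.12 counts of 96632 and 92033. Each deviation was below 1% of the Ftl1 count, and that of Ftl1-ps1 was a larger part of its own count.

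Mt1 (ENSMUSG00000031765.7, chromosome 8, 94179082 to 94180327, plus strand) stood at 1660 and 1299 TPM, a mean of 1479 ± 255 TPM (SD, n = 2), at rank 70. Mt2 (ENSMUSG00000031762.6, chromosome 8, 94172664 to 94173568, plus strand), which lies just upstream on the same strand, stood at 103 and 70.4 TPM, a mean of 86.9 ± 23.3 TPM (SD, n = 2), at rank 1708. Mt1 therefore exceeded Mt2 by 16.0 times in replicate 1 and by 18.5 times in replicate 2 in TPM. In counts, which do not divide by length, the ratio was 15.3 and 17.6. Both genes were lower in replicate 2, and no value of Mt1 came near any of Mt2. The other family members measured were Mt3 at 21.4 and 20.0 TPM, with 256 and 244 counts, and Mt4 with 5 and 1 counts.

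Among the transport genes, Slc11a2 (ENSMUSG00000023030.12, chromosome 15, 100387898 to 100425072, minus strand), the divalent metal importer, was the highest, at 36.2 and 30.4 TPM, a mean of 33.3 ± 4.08 TPM (SD, n = 2). Slc40a1 (ENSMUSG00000025993.6, chromosome 1, 45908068 to 45926523, minus strand), the exporter ferroportin, stood at 22.4 and 20.7 TPM, a mean of 21.6 ± 1.15 TPM. Heph (ENSMUSG00000031209.10, chromosome X, 96455359 to 96574485, plus strand), the copper-dependent oxidase that works with ferroportin, stood at 13.2 and 15.7 TPM, a mean of 14.4 ± 1.76 TPM. The lowest value of Slc11a2 lay above the highest of Slc40a1, and the lowest of Slc40a1 above the highest of Heph. Tfrc (ENSMUSG00000022797.11, chromosome 16, 32608920 to 32632794, plus strand), the transferrin receptor, stood at 6.15 and 7.08 TPM, a mean of 6.62 ± 0.658 TPM. Cybrd1 (ENSMUSG00000027015.4, chromosome 2, 71117923 to 71142926, plus strand), the duodenal ferric reductase, was the lowest at 1.75 and 1.30 TPM, a mean of 1.52 ± 0.318 TPM (SD, n = 2), at rank 12047. All 9 genes had at least 1 TPM in both libraries. In these bulk samples, fewer cells of a type and less RNA per cell cannot be told apart.

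**Figure D1:**
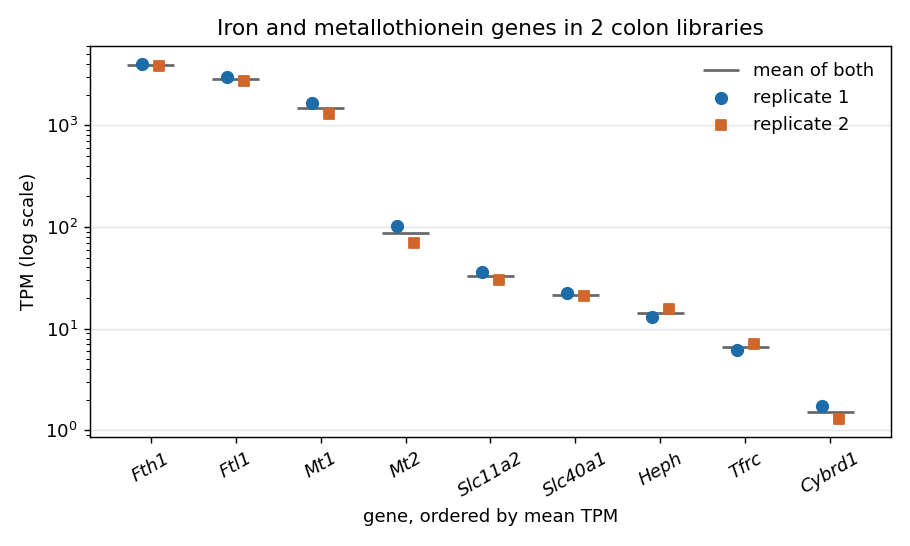
TPM of each of the 9 genes in replicate 1 (circles) and replicate 2 (squares) on a log axis, with the mean as a line. The ferritin subunits and Mt1 lie at 1299 TPM or above, Mt2 has a mean of 86.9 TPM, and the 5 transport genes run from 33.3 TPM for Slc11a2 down to 1.52 TPM for Cybrd1.

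The order of levels was Fth1, Ftl1, Mt1, Mt2, Slc11a2, Slc40a1, Heph, Tfrc and Cybrd1 in both libraries, and no pair of neighbours overlapped between libraries. The closest neighbours were Fth1 and Ftl1, whose means differed by 1.38 times, followed by Slc40a1 and Heph at 1.49 times and Slc11a2 and Slc40a1 at 1.54 times. The widest step was from Mt1 to Mt2. Between the storage protein and the receptor, both under iron regulatory proteins, Fth1 exceeded Tfrc by 655 times in replicate 1 and by 541 times in replicate 2 in TPM. Slc11a2 exceeded Tfrc by 5.88 and 4.29 times in TPM. In counts, which do not divide by length, Fth1 exceeded Tfrc by 119.7 and 93.5 times, and Slc11a2 exceeded Tfrc by 4.21 and 2.66 times.

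Differences between the libraries were below 2-fold for all 9 genes. The comparison used expected counts rounded to whole numbers and scaled by edgeR's TMM method, with an exact two-sided binomial test for each gene. A gene was called at a Benjamini-Hochberg adjusted p of at most 0.05 and at least a 2-fold difference, which 1125 of 17713 genes reached (6.35%). Of all genes tested, 2.55% were called higher in replicate 1 and 3.81% higher in replicate 2. None of the 9 members was called. Among tested genes with a mean of at least 1 TPM, which all 9 reached, 500 of 13769 were called. With the sign ignored, the members' median log2 ratio between the libraries was 0.298. It was 0.233 over all genes tested and 0.192 over those with a mean of at least 1 TPM, so the members did not differ less than other genes. At any fold, 8 of the 9 had an adjusted p of at most 0.05 in the exact binomial test, against 49.4% of all genes tested. Of the 9 members, 6 passed with the higher value in replicate 1, beside 25.6% of all genes tested, and 2 with the higher value in replicate 2, beside 23.8%. Among passing genes alone, 6 of 8 members and 51.9% of all were higher in replicate 1. Without adjustment, 9 of 9 had a p of at most 0.05 in the exact binomial test, beside 54.3% of all genes. This test covers counting error alone, and it compares 2 libraries, not conditions. With edgeR's exact test at the common dispersion estimated from both libraries (a biological coefficient of variation of 0.271), 0 of 9 passed with or without adjustment, beside 4.23% of all genes without it and 1.35% with it. That dispersion was taken from the differences between the same 2 libraries, so this test cannot show that the members were alike in both.

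Metallothionein and importer mRNA was somewhat higher in replicate 1. Mt2 had 1307 counts against 904, a log2 ratio of replicate 1 over replicate 2 of 0.50 with a 95% counting interval of 0.38 to 0.63 (adjusted p = 6.12e-15, exact binomial test). Mt1 had 20012 counts against 15938, a log2 ratio of 0.30 with an interval of 0.27 to 0.33 (adjusted p = 5.73e-83, exact binomial test). Slc11a2 had 3396 counts against 2620, a log2 ratio of 0.34 with an interval of 0.27 to 0.42 (adjusted p = 4.64e-19, exact binomial test). Cybrd1, on 329 and 240 counts, had the widest interval, 0.18 to 0.67 around a log2 ratio of 0.42 (adjusted p = 0.00169, exact binomial test). These 4 genes had the highest ratios of the 9, and each interval ended below the 2-fold limit.

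With TMM scaling, the smallest ratios were those of the ferritin genes and ferroportin. Fth1 had a log2 ratio of 0.04 with an interval of 0.03 to 0.05, smaller in size than that of all but 10.2% of genes tested. Ftl1 had a log2 ratio of 0.11 with an interval of 0.10 to 0.13. Slc40a1, on 2553 and 2359 counts, had a log2 ratio of 0.08 with an interval of 0.00 to 0.16 (adjusted p = 0.0835, exact binomial test). That outcome depended on the scaling, since Slc40a1 passed with DESeq2 size factors (log2 ratio 0.10, adjusted p = 0.0399) and with spike-in scaling (log2 ratio 0.27, adjusted p = 1.27e-10), again below 2-fold. With spike-in scaling, the smallest ratios were those of Heph and Tfrc, while Fth1 had 0.23 and Ftl1 0.30. At its depth of 96632 and 92033 counts, the difference of Fth1 lay beyond counting error (adjusted p = 1.37e-08, exact binomial test).

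Heph and Tfrc were higher in replicate 2 with TMM scaling. Heph, which is on the X chromosome, had 2139 counts against 2514, a log2 ratio of -0.26 with an interval of -0.35 to -0.18 (adjusted p = 3.25e-09, exact binomial test). Tfrc had 807 and 984 counts, a log2 ratio of -0.32 with an interval of -0.45 to -0.18 (adjusted p = 1.66e-05, exact binomial test). The members' median log2 ratio was 0.11, with 7 higher in replicate 1 and 2 higher in replicate 2, beside a median of -0.00 over all genes tested. Red-cell and acinar markers moved with the libraries as given above, and so did Xist. Adipocyte markers summed to 216 and 469 TPM, with 2 of 5 called higher in replicate 2, namely Cfd and Fabp4. With the acinar and haemoglobin genes left out of the scaling, each member's ratio moved by less than 0.01, and other parts these may have in the differences were not tested. Scaling by the spike-ins added 0.19 to every member's log2 ratio and moved the median of all genes to 0.19. It left all 9 directions as they were, but Heph, at -0.07 (adjusted p = 0.14), and Tfrc, at -0.13 (adjusted p = 0.11), no longer passed the exact binomial test. With the spike-ins, 55.8% of called genes were higher in replicate 1, against 40.1% with TMM.

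**Figure D2:**
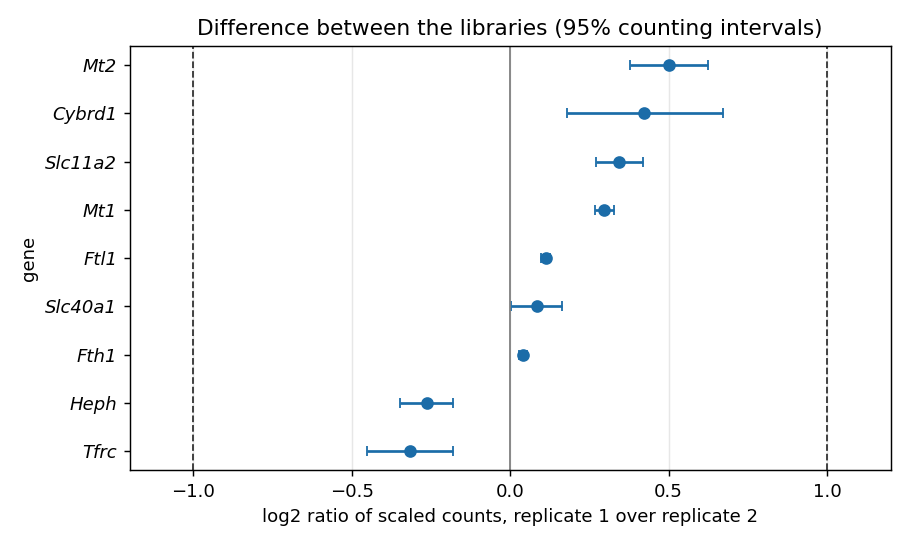
Log2 ratio of scaled counts, replicate 1 over replicate 2, for each of the 9 genes, with 95% counting intervals as bars and the 2-fold limits as dashed lines. Mt2 lies highest at 0.50 and Tfrc lowest at -0.32, and all 9 intervals stay inside the dashed lines.

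The promoters of Mt1 and Mt2 are printed because metal response elements are the known control elements of the family. Any part of these elements in the difference between the libraries was not tested. The motifs TGCACNC and TGCGCNC were searched on both strands in the bases before the annotated RefSeq start site (GRCm38.p6, the assembly of mm10), with up to 250 bases a gene. The Mt1 stretch is printed up to its GENCODE start. Capitals mark each match, written on the strand of the gene, so that a match to the opposite strand reads as its reverse complement.
Mt2, plus strand, chr8:94172368-94172617: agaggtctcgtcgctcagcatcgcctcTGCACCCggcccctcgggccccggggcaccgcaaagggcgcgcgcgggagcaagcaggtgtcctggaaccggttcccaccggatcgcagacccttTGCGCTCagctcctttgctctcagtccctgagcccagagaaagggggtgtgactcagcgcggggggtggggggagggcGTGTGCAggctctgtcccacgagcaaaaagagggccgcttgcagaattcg
Mt1, plus strand, chr8:94178839-94179081: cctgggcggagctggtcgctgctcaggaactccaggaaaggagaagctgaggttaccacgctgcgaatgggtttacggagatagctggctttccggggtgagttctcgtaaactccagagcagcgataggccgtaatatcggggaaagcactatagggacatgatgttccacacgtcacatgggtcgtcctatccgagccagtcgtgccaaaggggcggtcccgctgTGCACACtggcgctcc
Mt1, plus strand, from the RefSeq start onward, chr8:94179089-94179117: tcTGCACTCcgcccgaaaagTGCGCTCgg

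Mt2 held 3 matches in the 250 bases before its start, and 1.26% of 32851 promoters of that length held at least 3. Mt1 held 1 match in the bases before its annotated RefSeq start, 23 to 17 bases before it, and 21.4% of promoters held at least 1. When the window was extended to 50 bases past the start, a choice made after seeing the data, Mt1 held 3 matches and Mt2 held 4. In that window 1.97% of promoters held at least 3 and 0.517% held at least 4. The last Mt1 line above carries both of its further matches, at bases 3 and 21 counted from the annotated start. The annotated starts differ between sources: for Mt2 RefSeq puts the first base at 94172618 and GENCODE at 94172664. For Mt1 they are 94179089 and 94179082. Which starts were used in this tissue was not tested, so whether a match lies before or after the start holds for the annotation alone. Tfrc held 2 matches at 1 of its 2 starts, which overlap each other on opposite strands, while Fth1, Ftl1 and Cybrd1 held none in the bases before their starts. Slc11a2, Slc40a1 and Heph were not searched.

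**Figure D3:**
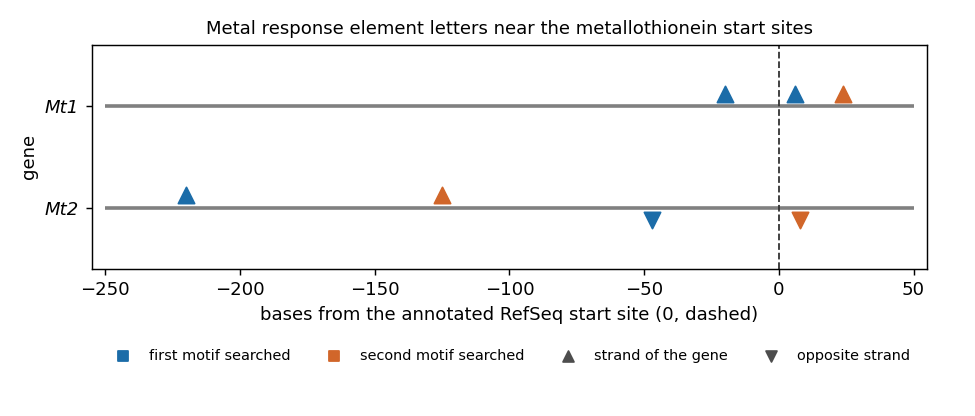
Position of each metal response element match in the window from 250 bases before to 50 after the annotated RefSeq start of Mt1 and Mt2, with the start as a dashed line at 0. Triangles point up for the strand of the gene and down for the opposite strand, and colour separates the motifs: Mt1 has 1 match before the start and 2 after it, and Mt2 has 3 before and 1 after.

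The transcript tables split the members' levels among 36 transcripts, of which 32 could be found in GENCODE vM21 by identifier and 29 of these had the same length there. Fth1, Cybrd1, Mt1 and Mt2 had 1 transcript each. The lengths of Fth1 (866 against 929 nt), Mt1 (540 against 549 nt) and Mt2 (556 against 511 nt) differ between the authors' annotation and vM21. What this does to their TPM and counts was not tested. Effective lengths, the part of a transcript where a fragment can start, were only 330 and 340 nt for Mt1 and 346 and 356 nt for Mt2.

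Ftl1 abundance lay mostly on a transcript other than Ftl1-201. Its 943-nt transcript (ENSMUST00000135869.1) took 78.6% of Ftl1 TPM in replicate 1 and 80.7% in replicate 2. Ftl1-201, a coding transcript of 968 nt that holds the 5′ UTR element printed above, took 20.7% and 18.7%. The identifier of the 943-nt transcript was not in vM21, where the only Ftl1 transcript of that length is Ftl1-202, annotated as a target of nonsense-mediated decay and also holding the element. Whether they are the same transcript was not tested, so the share of Ftl1 with a checked element is that of Ftl1-201 alone.

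For ferroportin, most mRNA was of the form with the 5′ element. Slc40a1-201, which starts at 45925582 and holds the element, took 97.0% of Slc40a1 TPM in both libraries. All transcripts with the element took 98.4% and 99.1%. The 4 annotated transcripts that start over 200 bases upstream, from around 45926519, took 1.58% and 0.05%, on 3.12 and 1.06 estimated counts. Of these 4, only Slc40a1-202 carries the element. With the authors' posterior mean shares, the 4 upstream forms took 3.89% and 2.94%. The upper bound for Slc40a1-206 was 1.10 TPM in replicate 1, against its estimate of 0.35 TPM.

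For the importer, the form with the 4-of-5 match was the minor one. No Slc11a2 transcript held a match with all 5 pairs, and 10.7% of protein-coding genes held one at 4 of 5. Slc11a2-201, which has no match at 4 or 5 pairs, took 70.3% of Slc11a2 TPM in replicate 1 and 61.6% in replicate 2, at 25.4 and 18.7 TPM. Slc11a2-205, which holds the 4-of-5 match in its 3′ UTR, took 13.3% and 13.8%, at 4.80 and 4.19 TPM. Slc11a2-201 thus exceeded Slc11a2-205 by 5.30 times in replicate 1 and by 4.47 times in replicate 2 in TPM. Of these 2 forms, Slc11a2-205 made up 15.9% and 18.3% by TPM. By estimated counts, a measure added after seeing the data, it made up 22.0% and 25.0%, since it is the longer transcript. These full-length forms start at 100423055 and 100423002, close to each other. The 3 transcripts that start over 200 bases upstream took 16.4% and 17.2% of TPM but only 1.14% and 1.36% of counts. Nearly all of that share was Slc11a2-207, a 389-nt annotated fragment with 37.8 and 35.7 counts. Slc11a2-203, a 718-nt transcript, took 0% of TPM in replicate 1 and 6.83% in replicate 2, on 0 and 38.8 counts. The authors' deposited bounds for Slc11a2-203 ran from 1.2e-05 to 1.99 TPM and from 0.86 to 3.80 TPM, and overlapped.

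For the receptor, Tfrc-201, the full coding mRNA of 4890 nt, took 33.8% of Tfrc TPM in replicate 1 and 48.7% in replicate 2. Tfrc-204, a 3527-nt transcript annotated with a retained intron that covers the last part of the gene, took 54.7% and 43.2%. The authors' deposited bounds, whose level is not stated, for Tfrc-201 ran from 1.45 to 2.50 TPM in replicate 1 and from 2.75 to 3.87 TPM in replicate 2, so they did not overlap. For Tfrc-204 they ran from 2.81 to 3.95 TPM and from 2.52 to 3.75 TPM, and overlapped. Both transcripts hold all 4 elements, and together they took 88.5% and 91.8% of Tfrc TPM. Tfrc-202, a shorter coding transcript that ends before the elements, took 11.5% and 8.16%.

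Heph was divided between a pair of long coding transcripts that start at 96455359 and 96456390. Heph-201 took 53.7% of Heph TPM in replicate 1 and 44.4% in replicate 2, and Heph-203 took 42.4% and 53.0%. The order of these transcripts switched between libraries, but the authors' deposited bounds overlapped for both, at 5.25 to 8.76 and 5.36 to 9.18 TPM for Heph-201 and at 3.80 to 7.41 and 5.91 to 9.89 TPM for Heph-203.

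**Figure D4:**
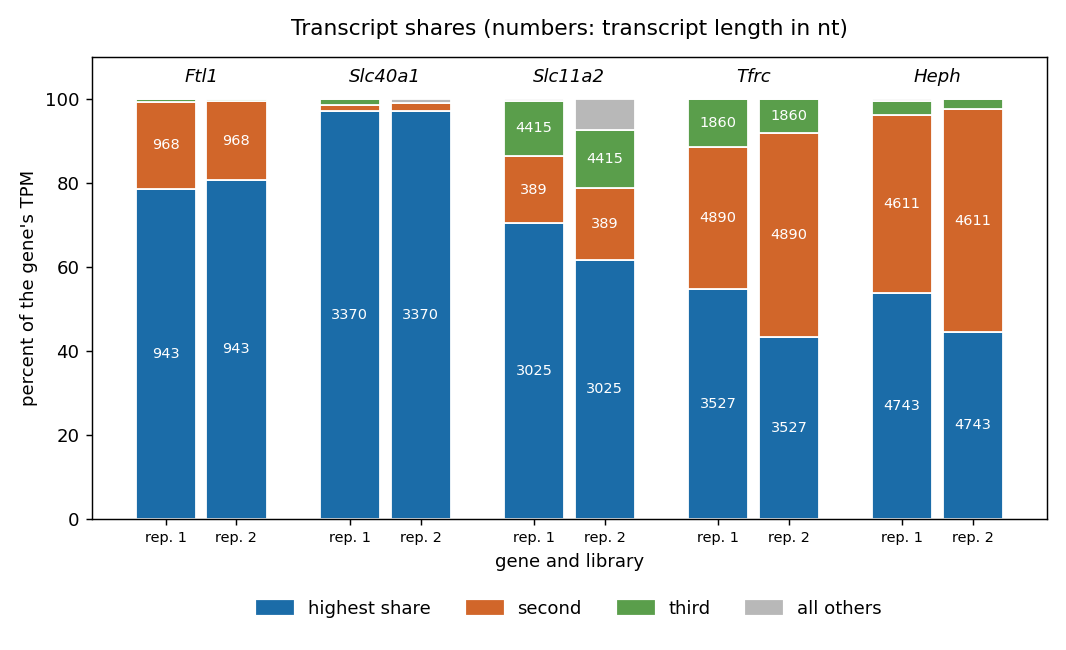
Percent of each gene's TPM on its transcripts in replicate 1 and replicate 2, stacked by mean share, with transcript lengths in nt printed on the bars. The 3370-nt Slc40a1 transcript takes 97.0% in both libraries, while the 4890-nt Tfrc transcript goes from 33.8% to 48.7%.

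The surrounding metal pathways were described through 7 lists of 90 further genes, of which 84 were tested and 2 were called (2.38%, beside 6.35% of all genes). Of the 90, 76 had at least 1 TPM in both libraries. Among tested genes with a mean of at least 1 TPM, 500 of 13769 were called, a smaller share than over all genes. In iron transport and storage, 0 of 15 tested genes were called. The highest were the iron chaperone Pcbp1 at 236 ± 22.3 TPM, transferrin (Trf) at 124 ± 45.0 TPM and the ferrireductase Steap3 at 70.5 ± 2.55 TPM (SD, n = 2). Trf, at 92.2 and 156 TPM, had a log2 ratio of -0.67 (adjusted p = 1.16e-73, exact binomial test), short of the 2-fold limit. In iron sensing and hepcidin, 1 of 9 tested genes was called, higher in replicate 2. It was Hamp2, a hepcidin gene, with 8 counts against 112, a log2 ratio of -3.76 (adjusted p = 4.98e-24, exact binomial test). It also passed edgeR's exact test (adjusted p = 7.66e-05). Hamp, the main hepcidin of liver, had 2 and 4 counts. Liver markers summed to 31.2 and 39.3 TPM, of which Ttr alone held 28.95 and 33.94 TPM. Of 4 tested liver markers, 1 was called, higher in replicate 2. It was Apoa2, on 6 and 35 counts, and it did not pass edgeR's exact test (adjusted p = 0.158). Acinar markers moved the same way as Hamp2, and their part in it was not tested.

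Of the iron regulatory proteins, Aco1 stood at 27.9 and 25.2 TPM and Ireb2 at 1.64 and 1.84 TPM. The hypoxia factors Epas1 (44.4 and 51.8 TPM) and Hif1a (48.1 and 36.7 TPM) were the highest of the sensing list. In haem metabolism 0 of 17 genes were called, led by the synthesis enzymes Alas1 (148 TPM) and Alad (126 TPM) and the biliverdin reductase Blvrb (140 TPM). Hmox1, which frees iron from haem, stood at 6.45 and 9.03 TPM. Iron-sulphur cluster genes had 0 of 7 called, and among them Glrx5 stood at 95.3 TPM and the cysteine desulphurase Nfs1 at 82.8 TPM.

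In the zinc list, which bears on Mt1 and Mt2, 1 of 18 tested genes was called, higher in replicate 1. It was the metal exporter Slc30a10, at 13.9 and 5.85 TPM, with a log2 ratio of 1.23 (adjusted p = 5.42e-146, exact binomial test), and it did not pass edgeR's exact test (adjusted p = 0.90). The zinc exporter Slc30a1, a known Mtf1 target like the metallothioneins, had a log2 count ratio of 0.66 on 5361 and 3319 counts. It lay below the 2-fold limit and did not pass edgeR's exact test. Its TPM of 63.4 and 26.2 differed by more than its counts did. Mtf1 itself stood at 7.20 and 6.56 TPM, and its part in these ratios was not tested. The zinc transporters Slc39a7, Slc39a4 and Slc39a5 led the list at 227, 173 and 131 TPM, with log2 ratios of 0.23, 0.09 and 0.33. Mt3 had a log2 ratio of 0.04 (adjusted p = 0.857, exact binomial test). The list's median log2 ratio over tested genes was 0.07.

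Copper genes had 0 of 9 called, led by the chaperone Atox1 at 307 TPM, the superoxide dismutase Sod1 at 306 TPM and Cox17 at 67.8 TPM. Targets of the oxidant-responsive factor NRF2, a group to which ferritin genes are also assigned, had 0 of 9 called. They were led by Gpx4 at 400.0 ± 127 TPM, Gclm at 207 ± 9.47 TPM and Srxn1 at 204 ± 34.3 TPM (SD, n = 2). Fth1 and Ftl1 each stood above all 90 genes of these lists in mean TPM, and so did Mt1.

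**Figure D5:**
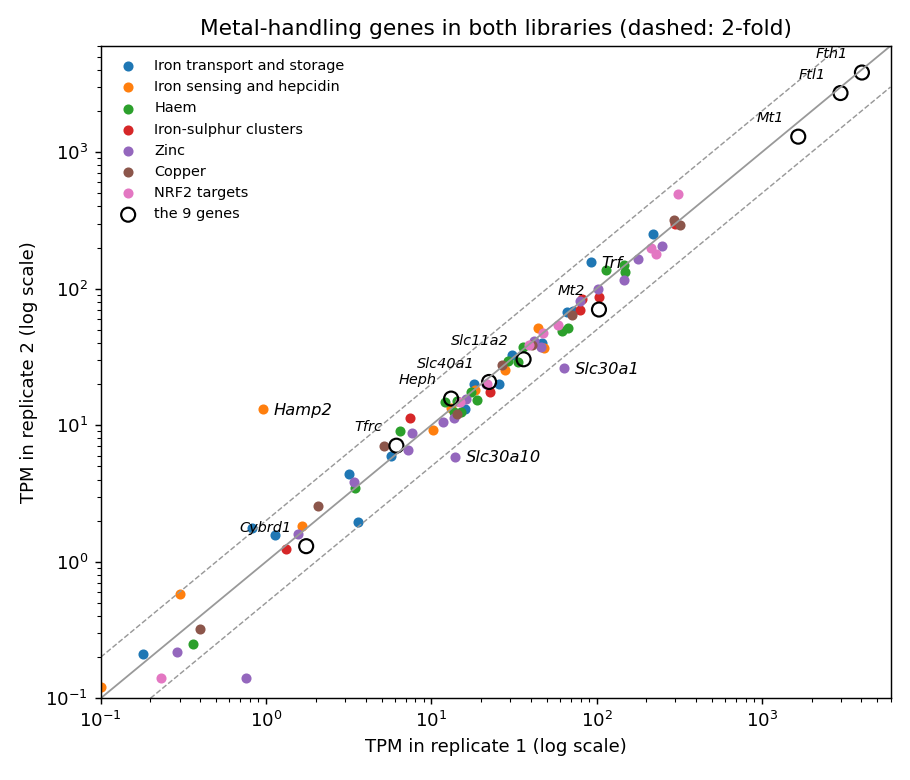
TPM in replicate 1 against replicate 2 on log axes for genes of the 7 metal-handling lists with at least 0.1 TPM in both libraries, coloured by list, with the 9 genes as open circles and dashed lines at 2-fold. The 9 open circles lie between the dashed lines, and 5 of the 86 plotted list genes lie outside them: Hamp2, Slc30a10, Slc30a1, Mt4 and Cp.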

How the data were processed

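Gene and transcript tables, 1 per library, were used as deposited. Their expected counts, TPM, FPKM and percent of a gene's TPM per transcript were made by the authors on mm10 with GENCODE M4, per the deposited file notes. Their bounds on TPM and standard deviations of counts are treated as scores deposited by the authors. The sources used here name neither the quantifier nor its use of strand. Symbols and coordinates came from GENCODE vM21, matching 42462 of 43346 Ensembl genes. Junction and contig files on mm9 were not used.

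Expected counts were rounded. Genes with 10 or more counts in sum entered the exact binomial test (SciPy 1.17.1), with a doubled tail above 2000 counts and library sizes scaled by TMM in edgeR 4.0.16 (R 4.3.3). Log2 ratios had 0.5 added to each count. The script was tested on simulated data. Members and lists were chosen with earlier results of these data known. All 9 members were named, and of each list the 3 highest genes and any called gene of at least 1 TPM, except 1 gene that is not reported here; Hmox1, Ireb2, Mt3, Mt4, Mtf1, Hamp and Slc30a1 were chosen after their values were seen. DESeq2 1.42.0 size factors, other filters and spike-in scaling were alternatives. Counts of 1 library against another cover counting error only. RefSeq supplied promoters for 6 of 9 members.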

Additional observations from a re-analysis of the deposited data

How the results depend on the processing

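The number of genes called between the libraries was 1125 of 17713 tested in the comparison as reported. It was 415 of 14121 tested when a summed count of at least 100 was required. With edgeR's exact test at the estimated dispersion, which adds the spread between libraries, it was 239 of 17713. Under DESeq2 size factors, total counts, spike-in scaling, TMM without acinar and haemoglobin genes, and no minimum count it lay between 1125 and 1239. No member was called under any of these 7 settings. All 9 log2 ratios kept their direction under the 8 other scalings and measures tried. By TPM with 0.5 added, Fth1 had 0.07, Ftl1 0.14, Slc11a2 0.25 and Mt1 0.35. The order of the members was the same with posterior mean TPM. The other alternatives were each library alone, whose order is already given above. The share of Tfrc in transcripts with the element was 84.9% with posterior mean shares and that of Slc40a1 92.1%. No paired analysis was possible because the series holds 1 group. Leaving out a library leaves 1, with no comparison, so each library's value is printed. Depth limits Cybrd1, Tfrc and the rare transcripts most.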
